A study of Mus musculus with 2 samples.

Results

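The clustered histone genes of the mouse were read in cultured primary brain pericytes (PCs), a mural cell of small vessels grown on collagen-coated plates. Members were all genes whose symbol begins with Hist1h, Hist2h, Hist3h or Hist4h, which gave 67 of the 31053 genes counted. They comprise 6 genes for the linker histone H1, 18 for H2A, 18 for H2B, 12 for H3 and 13 for H4. On GRCm38, 54 of them lay on chromosome 13, with 23 at chr13:21715763-22043676 and 31 at chr13:23531050-23934851. A further 10 lay at chr3:96219865-96270132, 2 at chr11:58948920-58956830 and 1 on chromosome 6.

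Each passage had 1 droplet library, PC5 from cells at passage 5 and PC20 from cells at passage 20. Each isolation pooled the brains of 6 female wild-type C57BL/6N mice aged 6 to 8 weeks. The study's methods describe a separate isolation for each passage, while the deposited description mentions a single group of 6 mice. Passage and isolation therefore cannot be told apart, and with 1 library per passage no test was possible. Levels are given as UMIs (unique molecular identifiers, each tagging 1 captured RNA molecule) per 1000000 UMIs of the library (CPM), with 95% intervals that cover counting error only.

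After filtering, 9950 PC5 cells held 223054273 UMIs and 4749 PC20 cells held 191122251, and 20 cell barcodes occurred in both libraries. Of the 5 pericyte markers chosen, all 5 had a UMI in PC5 and 4 in PC20, and their summed level was 53.9 CPM in PC5 and 8.53 in PC20. *Pdgfrb* had 44.6 CPM in PC5 and 5.43 in PC20. In the library labelled passage 20, *Rgs5* was at 0 UMIs, *Abcc9* at 1 and *Cspg4* at 19, against 405, 1 and 1237 in PC5, so these defining pericyte markers were at or near 0 there. *Abcc9* was as low in PC5, and *Anpep*, the remaining marker, had a higher CPM in PC20 than in PC5. Fibroblast markers summed to 1302 CPM in PC5 and 101 in PC20, smooth muscle markers to 282.5 and 49.5, endothelial markers to 13.4 and 0.22, and astrocyte markers, mostly *Slc4a4*, to 151 and 228.5. Microglial, oligodendrocyte and neuronal markers summed to under 1 CPM in either library, with *Cd48*, *Adgre1* and *Mobp* at 0 in both. The part of these differences in the histone values was not tested.

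Replication-dependent histone genes supply the proteins that package new DNA and are transcribed mainly in S phase. H2A, H2B, H3 and H4 form the nucleosome core, while H1 binds the linker DNA between cores. Their messengers typically lack introns and end in a conserved stem-loop bound by SLBP instead of a poly(A) tail, although some copies can also be polyadenylated downstream of the stem-loop. The libraries were primed with oligo(dT), so a stem-loop-ended messenger is captured poorly, and the values below describe what a poly(A) method caught. Levels therefore do not give the total histone messenger of a cell.

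The stem-loop was searched after the stop codon of each member's annotated transcript (GENCODE M21, GRCm38) as a run of GG, 3 bases, T, 4 bases, A, 3 bases and CC, with arms of 6 bases that pair in full. It was present in 45 of 67 members and in 0.249% of 58725 other protein-coding transcripts, searched over their last 600 bases. Of the 22 without it, 15 were annotated to end within 3 bases of the stop codon. These models therefore hold no sequence in which to find it. For each gene only the transcript kept for this search was read. *Hist1h2bq*, *Hist1h2br* and *Hist1h2bp* have further annotated exons, with 2015, 2212 and 706 exon bases against 1254, 1256 and 621 in that transcript. Whether their other exons hold the stem-loop was not tested. The lines below show it for members with high levels or large differences between the libraries. Each is written 5′ to 3′ on the gene's strand, with the 16 bases of the stem-loop in capitals and up to 5 flanking bases on each side.
*Hist1h2ap* (minus strand, chr13:21833026-21833049): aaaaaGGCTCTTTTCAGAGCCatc
*Hist1h2ae* (minus strand, chr13:23570663-23570688): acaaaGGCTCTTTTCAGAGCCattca
*Hist1h1e* (minus strand, chr13:23621777-23621802): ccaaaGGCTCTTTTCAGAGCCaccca
*Hist3h2a* (plus strand, chr11:58955167-58955192): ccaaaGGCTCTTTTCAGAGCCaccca
*Hist1h3c* (minus strand, chr13:23745042-23745067): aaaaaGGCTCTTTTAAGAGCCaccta
*Hist1h4d* (plus strand, chr13:23581945-23581970): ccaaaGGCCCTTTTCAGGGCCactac
*Hist1h4i* (minus strand, chr13:22040961-22040986): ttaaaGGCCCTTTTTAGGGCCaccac
*Hist4h4* (minus strand, chr6:136803993-136804018): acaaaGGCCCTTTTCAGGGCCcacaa
The form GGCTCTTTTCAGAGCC was shared by 25 members of the H1, H2A, H2B and H3 types. None of the 12 H4 stem-loops had it, and 7 of them had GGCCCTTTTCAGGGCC. Identical stem-loops occurred in members that were far apart in level and in direction between the libraries, as in *Hist1h1e* and *Hist3h2a*, whose 26 printed bases are the same.

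The annotated transcript went on for different lengths beyond this element, and members were grouped by that length. In 28 members at least 100 bases followed the stem-loop, or the stop codon where no stem-loop was found (long ends). In 22 the stem-loop was followed by fewer than 100 bases (short ends), and 17 had neither (no stem-loop). The 15 models that end within 3 bases of the stop codon are all in this last group, which therefore need not lack the element. The length of 100 was chosen after the values were seen. A polyadenylation signal, AATAAA or ATTAAA, stood in the last 40 bases of 16 of the 28 long transcripts and of 48.7% of other coding transcripts. In the transcripts kept, *Hist1h2bc* has 2 annotated exons and 742 bases after the stop codon with no stem-loop among them. *Hist1h2bq* and *Hist1h2br* are alike with 823 bases. Whether other transcripts of a gene would change its group was not tested.

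Oligo(dT) can also prime inside a transcript at a run of A. Runs of 8 or more occurred in 7 members, and these held 54.9% of the histone UMIs of PC5 and 44.6% of those of PC20. The runs of the members with the most UMIs are shown with the run in capitals.
*Hist1h2ap* (minus strand, chr13:21833033-21833060): aaagAAAAAAAAAAAAggctcttttcag
*Hist1h2ae* (minus strand, chr13:23570672-23570699): tcgtAAAAAAAAcaaaggctcttttcag
*Hist1h2bc* (plus strand, chr13:23692477-23692504): aagcAAAAAAAAtgcgtcatgttatatc
In *Hist1h2ap* the run of 12 abutted the stem-loop printed above, and in *Hist1h2ae* the run of 8 stood 4 bases before it. Where reads of either gene were primed was not tested.

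Histone UMIs were more abundant in PC20. The 67 members summed to 75318 UMIs or 338 CPM (95% interval 335 to 340) in PC5 and to 149980 UMIs or 785 CPM (781 to 789) in PC20. The log2 ratio of PC5 over PC20 was -1.22 (-1.23 to -1.20). Few genes carried most of this. In PC5 the leading members were *Hist1h2bc*, *Hist1h2ap*, *Hist1h1c*, *Hist1h1e* and *Hist1h2ae* with 66.3% of histone UMIs, and in PC20 *Hist1h2ap*, *Hist1h2ae*, *Hist1h1e*, *Hist1h1b* and *Hist1h1c* with 67.6%. At the other end, *Hist1h2aa*, *Hist1h2ba* and *Hist2h2aa2* had 0 UMIs in both libraries, 12 members had 1 to 99 over both, and the remaining 52 passed the minimum of 100 UMIs used for ratios. Of these 52, 4 lay past a log2 ratio of 1 towards PC5, where 23.0% of the 13557 genes read did so, and 32 lay past it towards PC20, against 19.0% of those genes. Their median log2 ratio was -1.51, while that of all genes read was 0.06.

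**Figure D1:**
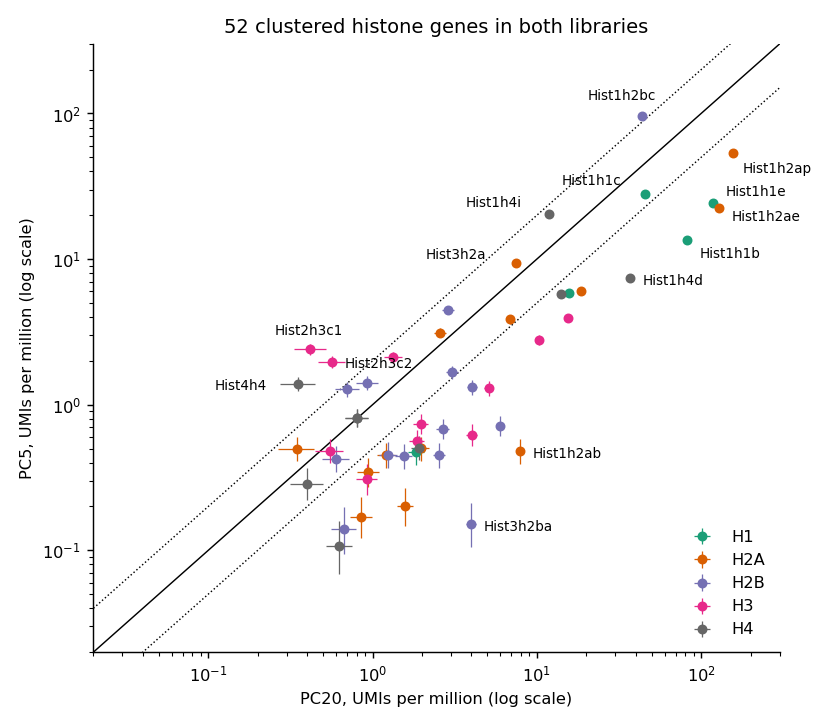
CPM of the 52 clustered histone genes with at least 100 UMIs over both libraries, PC20 on the horizontal and PC5 on the vertical axis (both log scales), coloured by histone type, with bars for 95% counting intervals. The solid line marks equal levels and the dotted lines a fold of 2, and 32 genes lie below the lower dotted line while 4 lie above the upper.

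Linker histone genes, which encode the H1 subtypes that compact chromatin, summed to 71.9 CPM in PC5 and 263 in PC20 (log2 ratio -1.87, -1.90 to -1.84). *Hist1h1e* had 24.1 CPM (23.4 to 24.7) in PC5 and 118 (116 to 120) in PC20, and *Hist1h1b* had 13.4 and 81.9, with log2 ratios of -2.29 and -2.61. Both were several times higher in PC20. The difference was smaller for *Hist1h1c*, at 6246 UMIs in PC5 and 8693 in PC20 (log2 ratio -0.70, -0.75 to -0.65), and *Hist1h1d* had 5.81 and 15.6 CPM. *Hist1h1c* was the leading H1 gene of PC5 with 39.0% of H1 UMIs, and it held 17.3% in PC20, where *Hist1h1e* led with 44.9%. Exons of *Hist1h1e* overlap those of *Hist1h2be* on the same strand, so reads in the shared stretch could not be assigned to either with certainty. The testis-specific *Hist1h1t* had 14 UMIs in PC5 and 1 in PC20.

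H2A genes summed to 101 CPM in PC5 and 336 in PC20 (log2 ratio -1.73, -1.76 to -1.71). *Hist1h2ap* had 53.3 CPM (52.3 to 54.2) in PC5 and 157 (155 to 159) in PC20, and *Hist1h2ae* had 22.4 (21.8 to 23.0) and 128 (126 to 130). These 2 genes together made up most of the H2A UMIs of both libraries, with 52.8% and 22.2% in PC5 and 46.8% and 38.1% in PC20. *Hist1h2ab* differed most among the H2A genes, with 0.48 CPM (0.39 to 0.58) in PC5 and 7.92 (7.53 to 8.33) in PC20 (log2 ratio -4.05, -4.34 to -3.76). *Hist3h2a*, on chromosome 11, was close to level at 9.42 and 7.45 CPM. Its exons overlap those of *Trim17* on the same strand, so reads in the shared stretch could not be assigned with certainty. *Hist1h2ao* shares 93.8% of its 31-base words with *Hist1h2ap* and held 7 UMIs in PC5 and 4 in PC20. *Hist2h2aa2*, at 0, shares all of its words with *Hist2h2aa1*. How reads that fit several copies were counted was not tested, so a low count or 0 in such a copy need not mean little messenger.

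H2B genes were the exception among the types, with a higher sum in PC5, 110 CPM (109 to 111), than in PC20, 74.8 (73.6 to 76.0). The log2 ratio was 0.56 (0.53 to 0.59). This rested on *Hist1h2bc*, which had 96.2 CPM (94.9 to 97.5) in PC5 and 43.7 (42.7 to 44.6) in PC20 and held 87.5% and 58.4% of H2B UMIs. Without it the other 17 genes summed to 13.7 CPM in PC5 and 31.1 in PC20 (log2 ratio -1.18, -1.24 to -1.12), so the direction of the H2B sum turned with this gene. Removing it moved the sum over all types to -1.62. *Hist3h2ba*, the neighbour of *Hist3h2a* on chromosome 11, had 34 UMIs in PC5 against 758 in PC20, the lowest ratio among the 52 members read (log2 -4.70, -5.24 to -4.21). *Hist1h2be* had 4.47 CPM in PC5 and 2.88 in PC20, and *Hist1h2bb* had 0.713 and 5.95.

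H3 genes summed to 17.2 CPM in PC5 and 42.5 in PC20 (log2 ratio -1.30, -1.36 to -1.25). *Hist1h3e* had 3.94 and 15.4 CPM and *Hist1h3c* 2.78 and 10.3, with log2 ratios of -1.97 and -1.90. On chromosome 3 the near copies went apart. *Hist2h3c1* had 2.40 CPM (2.20 to 2.61) in PC5 and 0.419 (0.332 to 0.521) in PC20, and *Hist2h3c2* had 1.96 (1.78 to 2.15) and 0.565 (0.464 to 0.682), while *Hist2h3b* had 0.623 (0.524 to 0.736) and 4.00 (3.72 to 4.30). The transcript of *Hist2h3b*, annotated with 37 bases after the stop codon, shares 80.6% of its 31-base words with that of *Hist2h3c2*, which has 423 bases after the stop codon. Exons of *Hist2h3c1* overlap those of *Gm20634* on the same strand, so its reads there could not be assigned with certainty.

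H4 genes, whose proteins are the same or nearly so, summed to 37.8 CPM in PC5 and 68.8 in PC20 (log2 ratio -0.87, -0.91 to -0.83). *Hist1h4i* led in PC5 with 20.3 CPM (19.7 to 20.9) against 11.9 (11.4 to 12.4) in PC20, and *Hist1h4d* led in PC20 with 36.8 against 7.44 in PC5, a log2 ratio of -2.31 (-2.38 to -2.23). The share of H4 UMIs from *Hist1h4i* was 53.7% in PC5 and 17.2% in PC20, and that from *Hist1h4d* was 19.7% and 53.5%. *Hist4h4* on chromosome 6 had 1.39 CPM in PC5 and 0.351 in PC20 (log2 ratio 1.98). *Hist1h4m* had 0 UMIs in PC5 and 96 in PC20, which is under the minimum of UMIs used for ratios, so no fold is given. It shares 91.7% of its 31-base words with *Hist1h4n*, and how reads that fit both copies were counted was not tested.

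Scaled per kilobase of annotated exon, *Hist1h2ap* was the highest member in both libraries with 110.5 CPM per kilobase in PC5 and 326 in PC20. *Hist1h2bc* followed in PC5 with 83.2, and *Hist1h2ae* in PC20 with 182 ahead of *Hist1h1b* with 110.2. Because the kit reads the 3′ end, a long annotated exon lowers such a value without lowering the number of molecules caught, and without this scaling *Hist1h2bc* had more UMIs in PC5 than *Hist1h2ap*.

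The 4 members past a log2 ratio of 1 towards PC5, *Hist1h2bc*, *Hist2h3c1*, *Hist2h3c2* and *Hist4h4*, all had long annotated ends. They were 15.4% of the 26 long-ended members read, below the 23.0% of all genes. Towards PC20 38.5% of the long-ended lay past it, against 19.0% of all genes. Over all 67 members, the long-ended summed to 242 CPM in PC5 and 450 in PC20 (log2 ratio -0.90), the short-ended to 77.8 and 234 (-1.59) and those without a stem-loop to 18.0 and 101 (-2.48). *Hist1h2bc* alone gave 96.2 CPM of the long-ended sum in PC5 and 43.7 in PC20, so the ratio of that sum rests in large part on this gene. Of the 26 long-ended members read, 13 had a positive and 13 a negative log2 ratio, with a median of -0.23. All 14 short-ended members were negative, with a median of -1.57, and 11 of the 12 members without a stem-loop were negative, with a median of -2.15. The exception was *Hist1h2an*, with 0.498 CPM in PC5 and 0.345 in PC20. Most models of the group without a stem-loop end within 3 bases of the stop codon, so this is a group by annotation. Members were read on their UMIs over both libraries, so a member low in PC5 could pass through PC20, and these counts and medians are descriptions. A group's median does not describe each member, since *Hist1h2ae*, *Hist1h1e*, *Hist1h4d* and *Hist3h2ba* had long ends and were much lower in PC5. Among the long-ended members, the 14 with a polyadenylation signal in the last 40 bases had a median of 0.02 and the 12 without one -1.44. The ratio was positive in 8 of the 14 and in 5 of the 12.

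**Figure D2:**
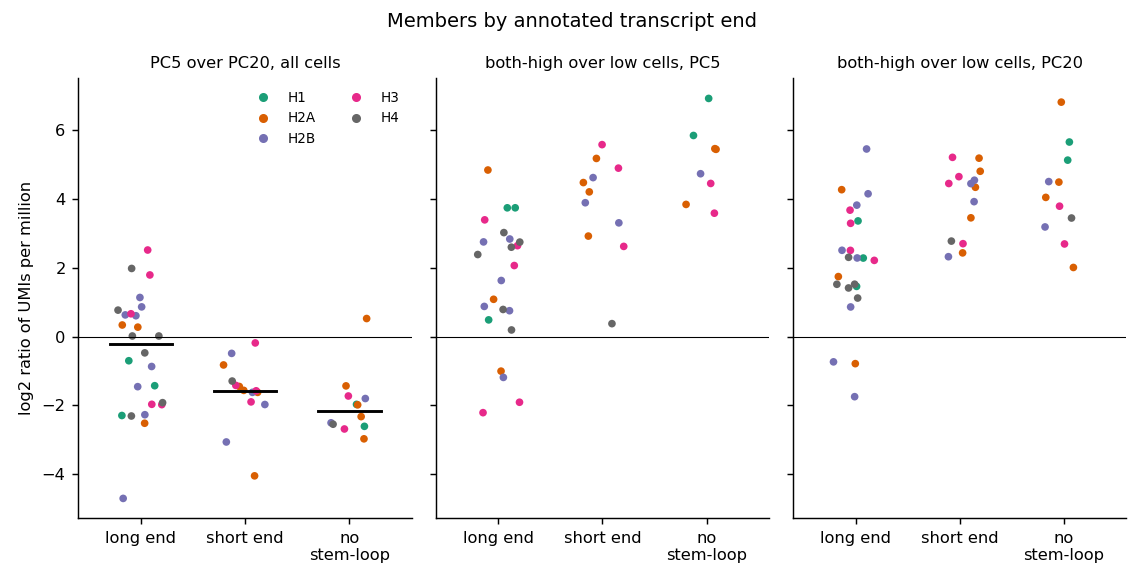
Log2 ratio of CPM of each member by the annotated end of its transcript (points, coloured by histone type, with the median as a bar in the first panel) for PC5 over PC20 in all cells and for both-high over low cells within each library, among members with at least 100 UMIs in the libraries compared. In the first panel 13 long-ended members lie above 0 and 13 below it, and all 14 short-ended members lie below it, while in the other panels each member below 0 has a long end. Most models without a stem-loop end within 3 bases of the stop codon and need not lack the element.

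Cells were then divided by the level of cell cycle genes outside the histones. The share of a cell's UMIs from 39 S-phase genes and from 52 G2/M genes was compared with cuts common to both libraries, a high cut at 0.116% and 0.438% and a low cut at 0.0605% and 0.180%. Cells under both low cuts were called low, cells above 1 high cut S-high or G2M-high, cells above both both-high, and the rest between. PC5 held 5514 low, 2169 between, 801 S-high, 925 G2M-high and 541 both-high cells, and PC20 held 1456, 1029, 609, 417 and 1238. Both-high cells were 5.44% (5.00 to 5.90) of PC5 and 26.1% (24.8 to 27.3) of PC20. These classes are ranges of a continuous share and not phases, and 8.87% of PC5 cells and 13.7% of PC20 cells lay within 10% of a high cut. Median UMIs per cell went from 19952 in low to 27079 in both-high cells of PC5 and from 30302 to 40228 in PC20, so CPM and not UMIs per cell is compared. Both-high cells may hold more than 1 cell, since no doublets were removed, and the part of doublets was not tested.

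The sum of all members followed these classes in both libraries, while the sum of H2B genes, given below, did not. In PC5 the sum of all members was 236 CPM in low, 298 in between, 458 in S-high, 404 in G2M-high and 992 in both-high cells, and in PC20 it was 232, 423, 695, 688 and 1641. Against low cells the both-high sum was 4.21-fold in PC5 (log2 ratio 2.07, 2.04 to 2.10) and 7.06-fold in PC20 (2.82, 2.79 to 2.85). Leaving out *Hist1h2bc* raised these folds to 7.82 and 9.07. The S-high value moved with the cuts. Its log2 ratio over low cells was 0.96 in PC5 and 1.58 in PC20 with common cuts, and 0.28 and 2.35 with both the high and the low cut taken in each library.

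Of the 42 members with at least 100 UMIs in PC5, 28 lay past a log2 ratio of 1 towards S-high over low cells, where 5.40% of 12527 genes did, and 2 lay past it towards low cells, against 2.72%. In PC20 these were 36 and 2 of 48, against 4.18% and 3.46% of 11826 genes. For G2M-high cells 30 of 42 lay past it in PC5 and 37 of 48 in PC20, against 4.81% and 4.06%, with 3 and 0 towards low cells, against 4.26% and 3.81%. For both-high cells these were 32 and 44, against 7.38% and 5.05%, with 4 and 1 towards low cells, against 4.03% and 4.96%. Read in both libraries were 39 members. Of these, 24 lay past a log2 ratio of 1 towards S-high cells in both, 24 towards G2M-high and 30 towards both-high cells. The share of all genes past it in both libraries was not computed, so these 3 counts have no background beside them. Members were read on their UMIs over all cells of a library, so one that was low in low cells could pass through the cells where it was high, and these counts are descriptions.

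H2A genes had the steepest gradient, from 30.95 CPM in low to 485 in both-high cells of PC5, 15.7-fold, and from 47.0 to 764 in PC20, 16.2-fold. *Hist1h2ap* went from 7.57 to 275 CPM in PC5 and from 10.0 to 365 in PC20, and *Hist1h2ae* from 4.68 to 134 and from 15.4 to 297. Linker genes went from 39.0 to 275 CPM in PC5 and from 84.6 to 568 in PC20, and within them the subtypes differed. *Hist1h1b* had 1.57 CPM in low and 90.6 in both-high cells of PC5 (log2 ratio 5.85) and 4.25 and 214 in PC20 (5.66), whereas *Hist1h1c* had 26.6 and 37.3 in PC5 (0.49) and 28.4 and 78.3 in PC20 (1.46). *Hist1h1a*, of low abundance, had the largest S-high over low ratio of the members read in PC5, a log2 ratio of 5.63 (3.93 to 8.00), with 3 UMIs in low cells.

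H3 genes went from 11.5 to 58.8 CPM in PC5 and from 10.2 to 94.2 in PC20, with *Hist1h3c* from 0.40 to 18.9 and from 1.03 to 25.9. H4 genes had the flattest gradient of the types apart from H2B, from 29.7 to 79.3 CPM in PC5 and from 28.6 to 131 in PC20. *Hist1h4i*, the leading H4 gene of PC5, had 16.8 CPM in low and 29.0 in both-high cells there, a log2 ratio of 0.79, and 6.19 and 16.5 in PC20. *Hist1h4d* went from 3.54 to 28.8 CPM in PC5 and from 15.1 to 74.9 in PC20. H2B genes without *Hist1h2bc* went from 9.36 to 43.7 CPM in PC5 and from 8.72 to 67.0 in PC20. With *Hist1h2bc* the H2B sum was 125 CPM in low, 85.55 in S-high, 86.3 in G2M-high and 94.4 in both-high cells of PC5. In PC20 the H2B sum was 62.0, 40.6, 103 and 82.9 CPM in these classes.

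**Figure D3:**
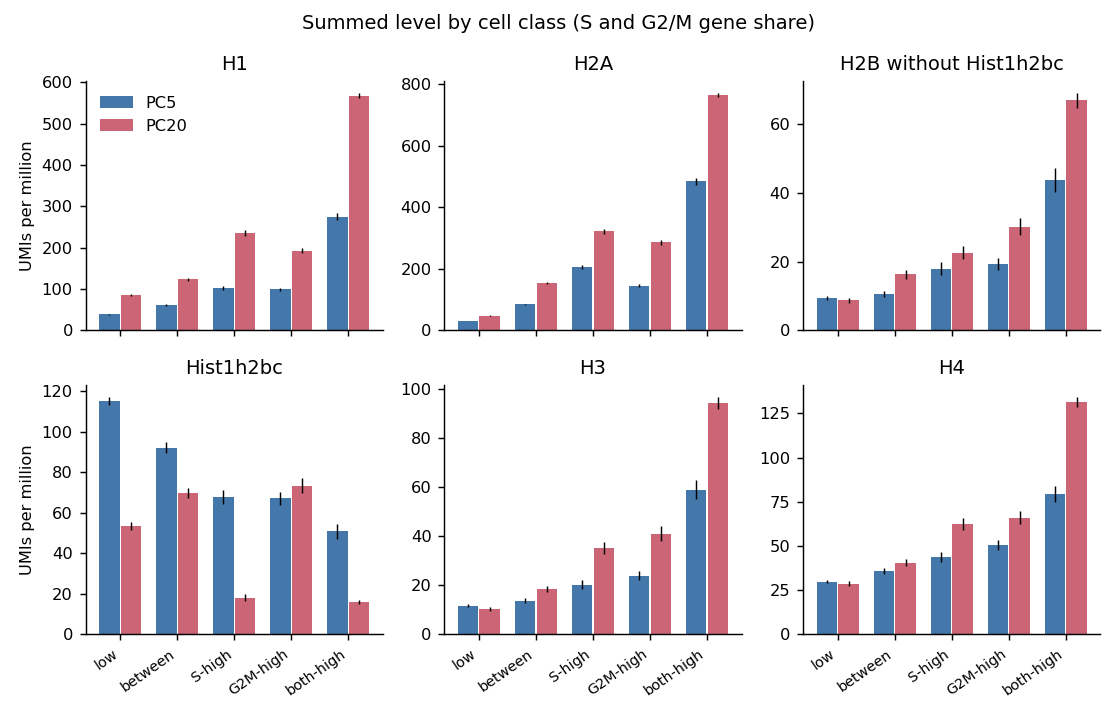
Summed CPM of each histone type, with H2B split into *Hist1h2bc* and the other H2B genes, in cells that were low, between, S-high, G2M-high or both-high for cell cycle genes, PC5 in blue and PC20 in red, with 95% counting intervals. Every panel but that of *Hist1h2bc* has its tallest bars in both-high cells, where H2A reached 485 CPM in PC5 and 764 in PC20, and *Hist1h2bc* was highest in the low cells of PC5 at 115 CPM.

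*Hist1h2bc* was lower in S-high and both-high than in low cells of both libraries, and in G2M-high cells it was lower in PC5 and higher in PC20. It had 115 CPM in low, 92.1 in between, 67.7 in S-high, 67.1 in G2M-high and 50.7 in both-high cells of PC5, and 53.2, 69.8, 18.0, 73.3 and 15.9 in PC20. In low cells it was the leading histone gene of both libraries, with 48.9% of histone UMIs in PC5 and 22.9% in PC20, and in both-high cells of PC5 it held 5.11%. *Hist3h2a* was likewise lower in both-high than in low cells, with 5.85 against 11.7 CPM in PC5 and 5.75 against 9.91 in PC20. In PC5 *Hist2h3c1* had 3.54 CPM in low and 0.77 in both-high cells and *Hist2h3c2* had 2.61 and 0.70, whereas in low cells of PC20 both were near 0.1 CPM. In PC20 *Hist2h3c2* went the other way and was higher in both-high than in low cells. All 4 have long annotated ends. Of the 23 long-ended members read in each library, however, 14 in PC5 and 19 in PC20 lay past a log2 ratio of 1 towards both-high cells. Of all genes 7.38% and 5.05% did so.

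The cells of each library were also ordered by S or G2/M share into 5 equal bins, without cuts. From the lowest to the highest S bin the sum of all members went from 265 to 600 CPM in PC5 and from 254 to 1695 in PC20, while *Hist1h2bc* went from 136 to 61.8 and from 66.3 to 11.2. In PC5 the sums of S bins 1 to 4 lay between 235 and 290 CPM, and bin 5 stood apart. From bin 1 to bin 4 *Hist1h2bc* went from 136 to 85.7 CPM, while H2A genes went from 31.7 to 80.35. Along the G2/M share of PC20 the sum was highest in bin 4 at 1403 CPM and was 1310 in bin 5. Cells of PC20 in the top S tertile and the lowest G2/M tertile numbered 24, and their histone sum was 210 CPM, close to the 222 CPM of cells lowest in both, while 53 cells in the lowest S and top G2/M tertile had 597 and 1030 cells in the top tertile of both had 1764.

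**Figure D4:**
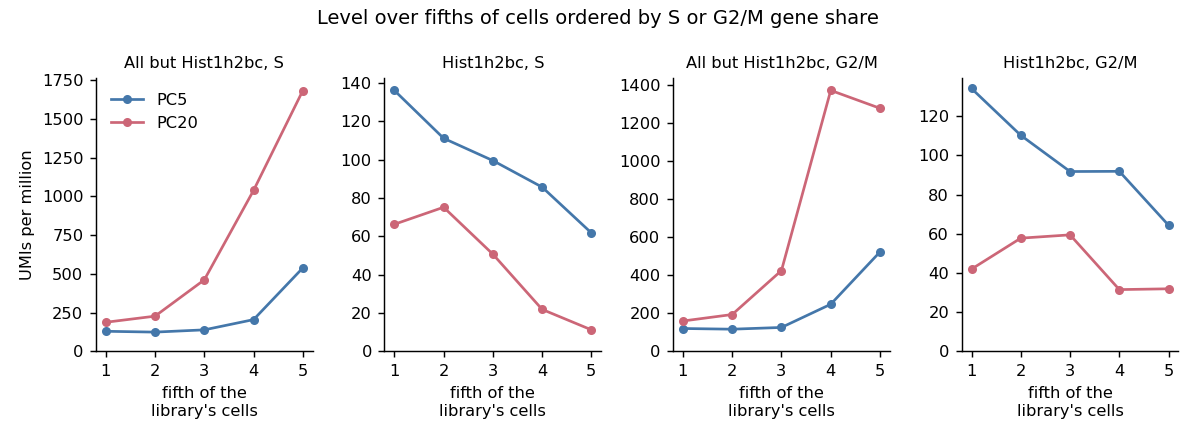
CPM of all members except *Hist1h2bc* and of *Hist1h2bc* in 5 equal bins of the cells of each library (horizontal axes), ordered on the left by S and on the right by G2/M, that is by the share of S-phase or of G2/M transcripts. *Hist1h2bc* runs from 136 to 61.8 CPM from the first to the last S bin of PC5 and from 66.3 to 11.2 in PC20, opposite in direction to the sum of the other members. Bin 2 of PC20 was higher than bin 1, at 75.2. Over the G2/M bins of PC20 *Hist1h2bc* had 41.9 CPM in bin 1, 59.4 in bin 3 and 31.9 in bin 5.

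Sums by transcript end also differed within each library. From low to both-high cells long-ended members summed to 213 and 496 CPM in PC5 and to 197 and 843 in PC20, short-ended members to 20.5 and 381 and to 27.5 and 540, and members without a stem-loop to 2.53 and 115 and to 7.92 and 258. These sums take in every member, whatever its UMIs. *Hist1h2bc* alone gave 115 CPM of the long-ended sum in low and 50.7 in both-high cells of PC5, and 53.2 in low cells of PC20. Members without a stem-loop are again mostly models that end within 3 bases of the stop codon. In low cells of both libraries long-ended members thus made up most of the histone signal. Over all cells they held 71.6% of histone UMIs in PC5 and 57.35% in PC20.

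Since the libraries differed in their share of both-high cells, PC5 and PC20 were also set side by side within classes. In low cells the sums were nearly level, with a log2 ratio of 0.02 (-0.01 to 0.05), although without *Hist1h2bc* it was -0.57 (-0.61 to -0.53). The ratio was -0.60 (-0.64 to -0.57) in S-high, -0.77 (-0.81 to -0.73) in G2M-high and -0.73 (-0.75 to -0.70) in both-high cells, each smaller in size than the -1.22 over all cells. G2/M transcripts were themselves unequal within a class, with 6163 CPM in both-high cells of PC5 and 9974 in those of PC20, and in these cells S transcripts were less so at 1776 and 1896. In low cells S transcripts were unequal too, with 246 CPM in PC5 and 357 in PC20, and G2/M transcripts had 925 and 1200. With quartiles of each library as cuts the histone ratios in S-high, G2M-high and both-high cells were -2.11, -1.54 and -1.50.

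In low cells 7 of 24 members lay past a log2 ratio of 1 towards PC5, against 21.8% of genes, and 7 towards PC20, against 18.4%. In both-high cells these were 3 and 18 of 41, against 19.6% and 16.0%, in S-high cells 3 and 11 of 22, against 20.7% and 16.8%, and in G2M-high cells 0 and 10 of 25, against 21.5% and 13.6%. *Hist1h1e*, *Hist1h1b*, *Hist1h2ae*, *Hist1h3e* and *Hist1h4d* lay past it towards PC20 in each of these classes, with *Hist1h1e* at -2.49 in low and -1.03 in both-high cells. The ratio of *Hist1h2ap*, by contrast, was between -0.80 and -0.17 in the 4 classes, nearer to 0 than the -1.56 over all cells. *Hist1h2bc* was at 1.11 in low, 1.91 in S-high and 1.67 in both-high cells but at -0.13 (-0.23 to -0.02) in G2M-high cells. *Hist4h4* was at 2.42 (1.31 to 3.78) in low cells, on fewer than 100 UMIs.

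**Figure D5:**
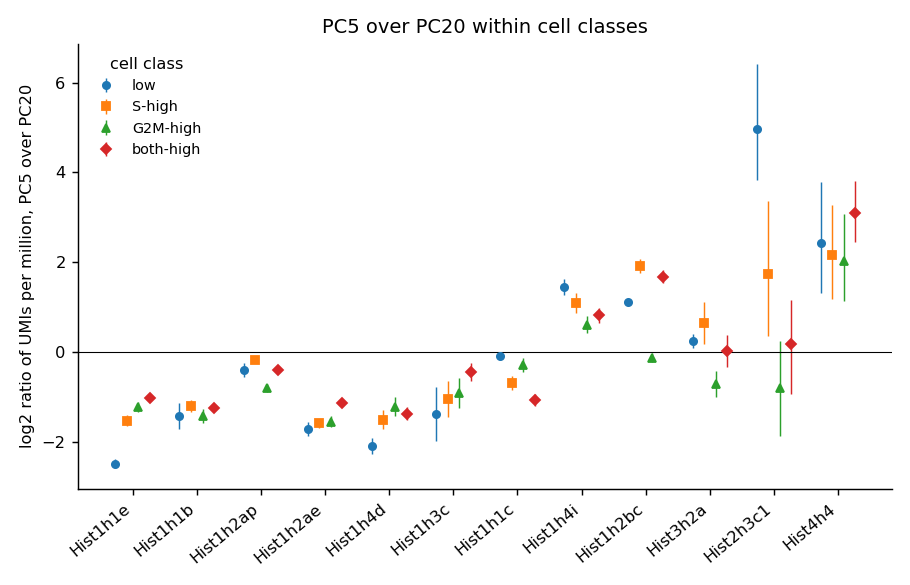
Log2 ratio of CPM, PC5 over PC20, of 12 named members within low, S-high, G2M-high and both-high cells, with 95% counting intervals. *Hist1h1e*, *Hist1h1b*, *Hist1h2ae* and *Hist1h4d* lie below -1 in each class, and *Hist4h4*, on fewer than 100 UMIs a class, lies above 2 in each.

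Histone UMIs were unevenly spread over cells. The 10% of cells with the most held 39.1% of them in PC5 and 45.1% in PC20. Per cell the histone share ran from 66.5 CPM at the 10th percentile over a median of 242 to 709 at the 90th in PC5, and from 85.9 over 356 to 2039 in PC20, so the libraries overlapped over most of their range and differed most at the upper end. A single cell held up to 28 members with a UMI in PC5 and up to 37 in PC20, where cells were deeper. RNA free in the droplets also gives UMIs to cells that do not make a histone, and its share was not tested.

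Promoter sequences (RefSeq, GRCm38.p6, from 250 bases before to 50 after the start) were found for 61 members and searched on both strands. The octamer ATTTGCAT, a known site for Oct factors in H2B promoters, was in 7 of 18 H2A, 6 of 16 H2B and no H1, H3 or H4 promoter, and in 1.74% of the 32851 promoters of the table. CCAAT occurred in each of the 49 H1, H2A, H2B and H3 promoters but in 3 of 12 of H4, against 37.4% of all, and TATAAA in 55.7% of members against 13.6%. The element AAACACAA, known from H1 promoters, was in 4 of 5 H1 promoters and 1.93% of all. An octamer between neighbouring genes on opposite strands counts for both, as in *Hist1h2aa* with *Hist1h2ba* and *Hist1h2ae* with *Hist1h2bg*. The octamer counts are therefore of promoters and not of separate sites. Windows around the octamer are shown 5′ to 3′ for the gene's strand, for a divergent pair, for the H2A gene with the lowest ratio and for an H2A gene with a positive ratio. The octamer and, in the pair, TATAAA are in capitals on whichever strand they lie. Both lines of the pair hold the same TATAAA, which lies at -142 of *Hist1h2ae* on the opposite strand.
*Hist1h2ae* (minus strand, chr13:23571297-23571364): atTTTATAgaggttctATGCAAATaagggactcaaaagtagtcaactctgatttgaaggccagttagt
*Hist1h2bg* (plus strand, chr13:23571325-23571392): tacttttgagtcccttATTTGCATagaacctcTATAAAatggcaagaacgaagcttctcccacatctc
*Hist1h2ab* (plus strand, chr13:23750943-23751010): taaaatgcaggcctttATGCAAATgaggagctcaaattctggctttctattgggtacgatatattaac
*Hist3h2a* (plus strand, chr11:58954550-58954617): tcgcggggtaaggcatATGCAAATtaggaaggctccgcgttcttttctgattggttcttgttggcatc
*Hist1h2ae* and *Hist1h2bg* start 176 bases apart and share 1 octamer. Per kilobase of exon *Hist1h2ae* had 31.8 CPM in PC5 and 182 in PC20, and *Hist1h2bg* had 0.733 and 2.01. The annotated transcript of *Hist1h2ae* has a polyadenylation signal at its end and a run of 8 A. That of *Hist1h2bg* has no signal there and a longest run of 3. The part of capture in their levels was not tested. Of the 12 divergent pairs of an H2A and an H2B gene, 10 had a ratio for both genes, at any number of UMIs, and these had the same sign in 8 pairs, negative in 7 and positive in 1, *Hist1h2ac* with *Hist1h2bc*. In *Hist2h2ac* with *Hist2h2be* and *Hist1h2an* with *Hist1h2bp* the signs were opposite. Negative ratios were common among all 52 members read, with 38 negative and 14 positive. Whether pairs had like signs more often than other genes was not tested. Some genes of these pairs, such as *Hist1h2ah* and *Hist1h2bl*, were under the minimum of 100 UMIs used elsewhere.

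Genes that act on histones were read from fixed lists in the same way. Of 11 histone variants outside the clusters, 1 lay past a log2 ratio of 1 towards PC5, against 23.0% of all genes read, and 1 towards PC20, against 19.0%. These were *H2afj*, with 368 CPM in PC5 against 104 (log2 ratio 1.82), and *H1fx*, with 7.07 against 29.1 (-2.04). The most abundant, *H3f3b*, had 760 and 1382 CPM, *H2afz* had 566 and 871, and the 11 together had 2549 in PC5 and 3528 in PC20, far above the 67 clustered genes. Since stem-loop-ended messengers are captured poorly, this does not compare the total messenger of the 2 sets. Towards both-high over low cells 7 of the 11 lay past it in PC5 and 5 in PC20, against 7.38% and 5.05% of all genes, among them *Cenpa*, the H3 variant of centromeres, and *H2afx*, whose product is phosphorylated at DNA breaks.

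Of 15 genes for the transcription and 3′ end processing of clustered histone genes, only *Ncbp2*, a subunit of the nuclear cap-binding complex, lay past a log2 ratio of 1 between the libraries, at 55.2 CPM in PC5 and 24.7 in PC20, against 23.0% of all genes towards PC5 and 19.0% towards PC20. *Slbp*, whose product binds the stem-loop, had 36.8 and 30.9 CPM, and *Npat*, a coactivator of histone genes, had 17.7 and 25.2. Towards S-high over low cells 6 of the 14 read in PC5 and 4 of the 14 in PC20 lay past it, against 5.40% and 4.18% of all genes, with *Casp8ap2* at 2.05 and 1.46 and *Slbp* at 1.82 and 1.08. Among 12 histone chaperones, 6 lay past it towards PC20, *Hirip3*, *Asf1a*, *Nasp*, *Ssrp1*, *Chaf1b* and *Anp32e*, with log2 ratios from -1.64 to -1.01, against 19.0% of all genes, and none towards PC5, against 23.0%. *Asf1b* and *Chaf1a*, which hand new H3 and H4 to replicating DNA, were at 3.59 and 2.78 in S-high over low cells of PC5 and at 4.03 and 3.46 in PC20. Within both-high cells 1 of the 12, *Hirip3* at -1.07, lay past a log2 ratio of 1 towards PC20, against 16.0% of all genes. Within low cells *Anp32e*, *Asf1a* and *Ssrp1*, 3 of the 12, lay past it towards PC20, against 18.4%. *Asf1b* lay past it towards PC5 there, 1 of the 12, against 21.8%.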

How the data were processed

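The deposited values are raw UMI counts per gene and cell barcode, which the authors made with Cell Ranger (5.0.1 in the file headers) from 10x 3′ v3.1 libraries on mm10. The annotation release is not given in the sources used here. Barcodes were kept as cells above 1000 genes and below 20% mitochondrial UMIs. No doublets were called or removed. Counts were summed over cells and scaled to CPM. Log2 ratios are PC5 over PC20 or class over low cells, without a pseudocount, and a side at 0 was set to 3 UMIs. Ratios were read for genes with at least 100 UMIs and called by size, past 1. Class cuts were the mean of both libraries' 75th percentiles (high) and medians (low). Intervals (95%) are exact Poisson for levels, conditional binomial for ratios and Clopper-Pearson for shares, and cover counting error only. Named members were the leading 2 of each type, the leading 10, the 5 highest and lowest ratios between libraries, the 5 highest S-high ratios per library, and the fixed lists, of which 1 of 16 processing symbols matched no gene. Other members were named after their values were seen. Members and lists were chosen with earlier results of these data known. Transcripts came from GENCODE M21 (31011 of 31053 identifiers matched) and promoters from RefSeq. Calculations were done in Python 3.11.15 with numpy 2.4.6 and scipy 1.17.1 and were tested on simulated data.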

Additional observations from a re-analysis of the deposited data

Results flagged for a closer look

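Several members differed from low cells in opposite directions in PC5 and PC20, and these differences between libraries were not tested. In S-high over low cells the log2 ratio of *Hist1h1c* was -0.15 in PC5 and 0.45 in PC20, and that of *Hist1h4h* was -0.93 and 1.51. In G2M-high over low cells it was -0.64 and 0.32 for *Hist3h2a*, -0.78 and 0.46 for *Hist1h2bc*, -1.17 and 3.93 for *Hist2h3c2*, and -0.65 and 1.65 for *Hist1h4h*. *Hist2h3c2* had 0.10 CPM in low cells of PC20, so its ratio there rests on few UMIs. Barcodes left out by the cell filter held clustered histone UMIs at 544.3 CPM in PC5, from 503 UMIs in 679 barcodes, and at 516 CPM in PC20, from 95 UMIs in 135 barcodes.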

How the results depend on the processing

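The log2 ratio of PC5 over PC20 of the summed members stayed between -1.62 and -1.15 and that of each histone type kept its sign, except H2B, which was 0.56 with and -1.18 without *Hist1h2bc* (an alternative chosen after seeing the data). Of 162 values of 27 named members under 6 alternatives, 161 kept their sign, and *Hist1h2an* went to -0.09 with the mean over cells. The sum over all members was -1.19 in thinned cells, -1.28 centred on the median gene tested (0.06), -1.20 with mitochondrial and ribosomal protein genes left out of the library size, -1.15 with the mean over cells of per-cell CPM and -1.62 without *Hist1h2bc*.

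The log2 ratios over low cells in PC5 for S-high, G2M-high and both-high cells were 0.28, 0.39 and 1.53 with cuts at quartiles of each library, 1.79, 0.91 and 2.52 with cuts at the 90th percentile, 0.90, 0.69 and 1.97 with the other library size, 0.79, 0.74 and 1.98 with the mean over cells, and 1.70, 1.48 and 2.97 without *Hist1h2bc*, and in thinned cells G2M-high was 0.90 and both-high 1.97. In PC20 they were 2.35, 1.89 and 3.00 with library quartiles, 2.75, 2.10 and 3.19 at the 90th percentile and 1.92, 1.78 and 3.18 without *Hist1h2bc*. S-high was 1.40 with the mean over cells, S-high and G2M-high were 1.46 and 1.75 in thinned cells, and both-high was 2.76 with the other library size. PC5 over PC20 in low, S-high, G2M-high and both-high cells was -0.033, -2.11, -1.54 and -1.50 with library quartiles, -0.016, -0.53, -0.87 and -0.88 in thinned cells, and -0.57, -0.79, -0.87 and -0.79 without *Hist1h2bc*. At the 90th percentile the last 3 classes were -0.94, -1.16 and -0.65. With the mean over cells low, S-high and both-high cells were 0.084, -0.52 and -0.77, and with the other library size G2M-high cells were -0.83.

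In thinned cells fewer members reached 100 UMIs, 40 for PC5 over PC20, 26 for the classes of PC5 and 27 for those of PC20. Members past a log2 ratio of 1 over low cells then numbered 15 for S-high, 16 for G2M-high and 16 for both-high cells in PC5. In PC20 they numbered 18, 24 and 25. The share of all genes past it in thinned cells was not computed, so these counts have no background beside them. No paired analysis was possible because each passage has 1 library. With 1 library per passage the spread between cultures is unknown, and sums of many UMIs have narrow counting intervals that leave it out.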
